A study of Rattus norvegicus with 6 samples.

Results

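The 8 genes described here encode the calcium entry, calcium exit and pacemaker currents of heart muscle: the L-type channel subunits Cacna1c, Cacnb2 and Cacna2d1, the T-type channels Cacna1g and Cacna1h, the pacemaker channels Hcn2 and Hcn4, and the sodium-calcium exchanger Slc8a1. They were chosen by name, and each matched 1 row among the 34257 genes of the table. Slc8a1 carries sodium but is a transporter, and no voltage-gated sodium channel is among the 8. The RNA came from neonatal rat ventricular cardiomyocytes, which are heart muscle cells isolated from the ventricles of newborn rats and kept in culture. The perhexiline group, exposed to 1 µM of the drug for 24 h, had 3 libraries, and the vehicle group had 3. Perhexiline is an antianginal drug that inhibits the import of long-chain fatty acids into mitochondria. The rat strain, the vehicle and whether replicates were separate cultures are not stated in the labels, so p-values measure the spread between these libraries, which may be technical.

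In a working heart muscle cell the action potential opens L-type calcium channels, and the calcium that enters triggers a larger release from the sarcoplasmic reticulum. The exchanger then uses the inward sodium gradient to move calcium back out, which is a part of the return to the resting level. T-type channels open at more negative voltages and HCN channels open on hyperpolarization, and both are known for pacemaker cells and for the immature ventricle, where they are more abundant than in the adult.

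All 8 genes were expressed above the filter, and none of them passed the test with perhexiline. The members with the smallest p were the exchanger Slc8a1, at 0.773 times its vehicle mean (limma adjusted p = 0.0506), and the L-type pore gene Cacna1c, at 0.804 times (adjusted p = 0.0591). The T-type and pacemaker channel genes had ratios of 1.01 to 1.14 and overlapping groups. Over the whole table, 6.66% of the 13460 tested genes passed an adjusted p of 0.05 (3.55% higher and 3.11% lower), against 0 of the 8. That split of 478 higher and 418 lower became 815 higher and 333 lower under total-fragment scaling. At an unadjusted p under 0.05 there were 4 of the 8, which were Slc8a1, Cacna1c, Cacnb2 and Cacna2d1, and 3460 of all tested genes. Under total-fragment scaling the unadjusted limma p was 0.0608 for Cacnb2 and 0.0739 for Cacna2d1. With limma-voom on recovered fragments, 2 of the 8 passed, both lower (Slc8a1 and Cacna1c). The perhexiline libraries lay wholly below the vehicle libraries for Slc8a1, Cacna1c and Cacnb2, which is 3 of 8 genes, against 14.9% of all tested genes (31.9% were separate in either direction). For none of the 8 did the perhexiline libraries lie wholly above, against 17.0% of all tested genes. The median log2 difference of the 8 was -0.08, with 4 above 0 and 4 below, and that of all tested genes was 0.01. Levels are FPKM, which are fragments scaled to annotated gene length and to a size factor of the library. That factor was not the total of recovered fragments. A fragment per kilobase stood for 0.0727 FPKM in vehicle replicate 1, with 13866500 fragments. In vehicle replicate 3, with 13616252 fragments, it stood for 0.0715 FPKM. Perhexiline replicate 2 had 14863929 fragments and 0.0637 FPKM for each fragment per kilobase. Vehicle replicate 2 had more fragments, 15241994, and also more FPKM for each, 0.0654. Scaling by total fragments instead put the median log2 difference of all genes at 0.062. Differences are on the log2(FPKM + 1) scale.

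**Figure D1:**
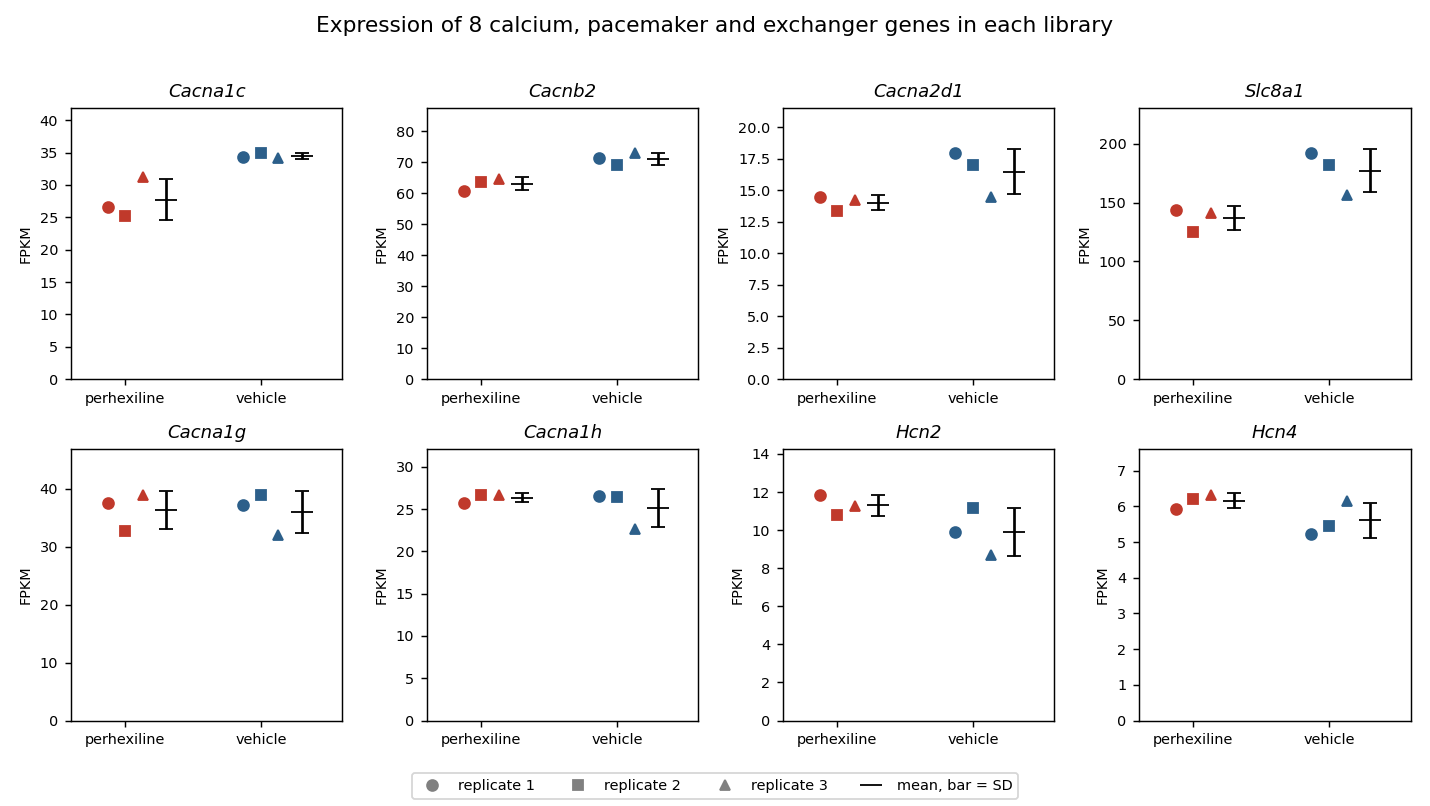
FPKM of each gene (y axis, from 0) in the perhexiline (left) and vehicle (right) libraries, with 1 symbol per replicate and the mean ± SD of 3 libraries beside it. The groups are separate for Cacna1c, Cacnb2 and Slc8a1, and they overlap for the other 5 genes.

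The upstream sequences of the 3 genes whose groups did not overlap are shown so that their start regions can be compared. They are the 250 bases before the first RefSeq start listed for each gene, on GRCr8, read 5′ to 3′ in the direction of transcription. Capitals mark matches on either strand to the GATA motif GATAA, the E-box CANNTG, the GC box GGGCGG and the cAMP response half-site TGACG. On the opposite strand the GC box reads CCGCCC and the half-site CGTCA, and neighbouring matches can run together.
Slc8a1, chr6:19023309-19023558, plus strand: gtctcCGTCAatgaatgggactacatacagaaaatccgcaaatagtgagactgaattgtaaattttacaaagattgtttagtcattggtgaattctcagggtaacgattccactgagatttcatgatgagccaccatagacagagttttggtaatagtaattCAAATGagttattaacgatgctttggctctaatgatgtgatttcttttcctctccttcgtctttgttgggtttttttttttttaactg
Cacna1c, chr4:154051749-154051998, minus strand: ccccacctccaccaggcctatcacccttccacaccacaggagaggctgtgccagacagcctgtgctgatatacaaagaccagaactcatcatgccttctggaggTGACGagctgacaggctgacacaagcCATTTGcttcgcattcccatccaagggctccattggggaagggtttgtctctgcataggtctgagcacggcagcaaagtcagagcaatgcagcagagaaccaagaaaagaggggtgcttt
Cacnb2, chr17:82472965-82473214, plus strand: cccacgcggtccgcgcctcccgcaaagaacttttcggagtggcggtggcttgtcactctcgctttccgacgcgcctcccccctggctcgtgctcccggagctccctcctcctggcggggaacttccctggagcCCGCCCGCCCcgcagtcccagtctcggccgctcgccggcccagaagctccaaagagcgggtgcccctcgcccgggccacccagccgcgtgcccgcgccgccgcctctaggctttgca
The windows of Slc8a1 and Cacna1c each held 1 E-box and 1 half-site and no GC box, with GC contents of 35.2% and 54.4%. The Cacnb2 window had a GC content of 73.2% and 2 overlapping GC boxes with no E-box, and Cacnb2 has 2 listed starts. The window of its other start, not printed, differed, with a GC content of 45.6%, 1 half-site and no GC box or E-box. Of 33469 rat windows of this length, 65.5% held the E-box, 18.2% the half-site, 30.5% the GC box and 23.5% the GATA motif. Windows were found for 5 of the 8 genes, and these matches are letters in a sequence, not binding sites. The starts are those of the reference annotation, and these libraries do not show which start was used.

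The L-type calcium channel is built from a pore, an intracellular beta subunit and an extracellular alpha2delta subunit. Cacna1c encodes Cav1.2, the pore through which most calcium enters ventricular muscle (chromosome 4, 150641066 to 150829913, minus strand). This and the other gene positions are those of the deposited table, which names no genome build, and they need not be on the build of the printed sequences. Slc8a1 is on the minus strand in that table and on the plus strand in RefSeq, and the 2 neighbours within 1 Mb that could be matched differ in strand between these sources too. Cacna1c had 26.6, 25.2 and 31.3 FPKM in the perhexiline libraries, against 34.3, 34.9 and 34.1 FPKM in the vehicle libraries. Every perhexiline library was below every vehicle library, and the vehicle values were close together while perhexiline replicate 3 lay nearest to them. The means were 27.7 ± 3.16 FPKM with perhexiline and 34.4 ± 0.435 FPKM with vehicle (SD, n = 3 each). Its log2 difference was -0.31 ± 0.079 (SE), with a 95% interval of -0.49 to -0.13 before adjustment over all genes. The call turned on the processing, since Cacna1c was called without perhexiline replicate 3 (adjusted p = 0.0472), among genes with a mean FPKM of at least 5 (0.041) and with limma-voom (0.0176). Over the 15 alternatives its adjusted p ranged up to 0.171.

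Cacnb2 encodes the beta subunit that brings the pore to the membrane and tunes its gating (chromosome 17, 81798756 to 82017682, plus strand). Its libraries had 60.8, 63.7 and 64.6 FPKM with perhexiline, against 71.2, 69.1 and 73.0 FPKM with vehicle. The groups were separate but the gap was small, at 0.887 times the vehicle mean. The log2 difference was -0.17 ± 0.047 (SE; adjusted p = 0.0708), and it was called in none of the 15 alternatives. Cacnb2 made up 83.4% to 84.7% of the summed FPKM of the 4 beta subunit genes in perhexiline libraries and 86.8% to 88.0% in vehicle libraries. The share of Cacnb3, another beta subunit, was 12.2% to 13.5% with perhexiline and 9.40% to 9.77% with vehicle, and Cacnb3 itself did not pass (9.19 to 9.85 FPKM with perhexiline and 7.44 to 8.01 FPKM with vehicle; adjusted p = 0.0589). Total-fragment scaling gave Cacnb3 a call. These shares were described after their values were seen and were not tested.

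Cacna2d1 encodes the alpha2delta subunit that promotes surface delivery of the channel (chromosome 4, 15710417 to 16130848, minus strand). It had 14.5, 13.4 and 14.2 FPKM in the perhexiline libraries, against 18.0, 17.0 and 14.5 FPKM in the vehicle libraries. Vehicle replicate 3 lay within the perhexiline range and the other vehicle libraries lay above it. The log2 difference was -0.21 ± 0.085 (SE; adjusted p = 0.169). Without vehicle replicate 3 it was -0.30 (adjusted p = 0.0525). A paralog outside the 8, Cacna2d2, had the larger share of alpha2delta FPKM, with 14.9 to 19.6 FPKM in perhexiline libraries and 17.4 to 23.6 FPKM in vehicle libraries (adjusted p = 0.189). Cacna1c, by contrast, held 96.7% to 97.9% of the FPKM of the 4 L-type pore genes in perhexiline libraries and 97.4% to 97.8% in vehicle libraries. Per annotated kilobase, Cacnb2 stood at 2.29 ± 0.229 times Cacna1c with perhexiline and 2.06 ± 0.0804 times with vehicle, and Cacna2d1 at 0.509 ± 0.048 and 0.478 ± 0.0506 times (SD, n = 3 each).

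Slc8a1 encodes NCX1, the main route by which calcium leaves a heart muscle cell (chromosome 6, 4258991 to 4520604, minus strand). It was the most abundant of the 8 genes, with 144, 125 and 141 FPKM in the perhexiline libraries, against 192, 182 and 157 FPKM in the vehicle libraries. The groups did not overlap, although vehicle replicate 3 came closer to the perhexiline libraries than to the other vehicle libraries. The means were 137 ± 10.03 FPKM with perhexiline and 177 ± 18.2 FPKM with vehicle (SD, n = 3 each), and the log2 difference was -0.37 ± 0.087 (SE; adjusted p = 0.0506). Its unadjusted p ranked 914 among 13460, just after the 896 called genes. Slc8a1 was called without vehicle replicate 3 (log2 difference -0.45, adjusted p = 0.0264) and in 4 other alternatives. It was not called in any of the other 5 fits that left out 1 library, where its adjusted p ranged up to 0.153. Slc8a2 and Slc8a3, the other exchanger genes of the family, were both at most 0.265 FPKM, so Slc8a1 held at least 99.8% of the family's FPKM in every library.

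T-type calcium channels are the low-voltage channels of pacemaking and immature muscle, and both cardiac members were readily detected. Cacna1g encodes Cav3.1 (chromosome 10, 82129506 to 82197848, minus strand), and it had 37.5, 32.7 and 39.0 FPKM with perhexiline, against 37.1, 38.8 and 32.0 FPKM with vehicle. The groups overlapped over most of their range. Its log2 difference was 0.02, with a 95% interval of -0.20 to 0.23 (adjusted p = 0.928), and the sign was negative without perhexiline replicate 1, perhexiline replicate 3 or vehicle replicate 3 (-0.0053, -0.033 and -0.063, in that order). Cacna1h encodes Cav3.2 (chromosome 10, 14730941 to 14788617, minus strand), and it had 25.8, 26.7 and 26.6 FPKM with perhexiline, against 26.5, 26.4 and 22.6 FPKM with vehicle. Vehicle replicate 3 was low and the other 5 libraries were within 1 FPKM of each other. The log2 difference was 0.07, with a 95% interval of -0.10 to 0.23 (adjusted p = 0.586), and -0.0046 without vehicle replicate 3. Cacna1h overlaps Tpsg1 on the opposite strand, which was listed at 1.41 to 2.02 FPKM.

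The balance of the T-type paralogs overlapped between the groups. The ratio of Cacna1h to Cacna1g was 0.729 ± 0.0764 with perhexiline and 0.70 ± 0.0188 with vehicle (SD, n = 3 each; exact permutation test, two-sided, p = 0.8, adjusted over 2 ratios 0.9), and with 3 libraries against 3 this test cannot give less than 0.1. The third T-type gene, Cacna1i, was at most 0.077% of the family's FPKM in any library.

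HCN channels carry the mixed sodium and potassium current that depolarizes pacemaker cells between beats, and cyclic AMP opens them further. Hcn2, the HCN gene known for ventricular muscle (chromosome 7, 12851739 to 12874215, minus strand), had 11.9, 10.8 and 11.2 FPKM with perhexiline, against 9.90, 11.1 and 8.67 FPKM with vehicle. Vehicle replicate 2 lay within the perhexiline range and the other vehicle libraries lay below it. The log2 difference was 0.18, with a 95% interval of -0.04 to 0.40 (adjusted p = 0.272). Hcn4, the main HCN gene of the sinoatrial node (chromosome 8, 63600663 to 63639654, plus strand), had 5.94, 6.21 and 6.33 FPKM with perhexiline, against 5.22, 5.45 and 6.16 FPKM with vehicle. Vehicle replicate 3 was within the perhexiline range, and the log2 difference was 0.12, with a 95% interval of -0.07 to 0.31 (adjusted p = 0.407). The intervals of both genes include 0, and neither gene was called in any of the 15 alternatives. The ratio of Hcn4 to Hcn2 was 0.547 ± 0.0406 with perhexiline and 0.576 ± 0.118 with vehicle (SD, n = 3 each; exact permutation test, two-sided, p = 0.9, adjusted over 2 ratios 0.9). The same lowest possible p holds for this test. Hcn3 was at most 0.204 FPKM.

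**Figure D2:**
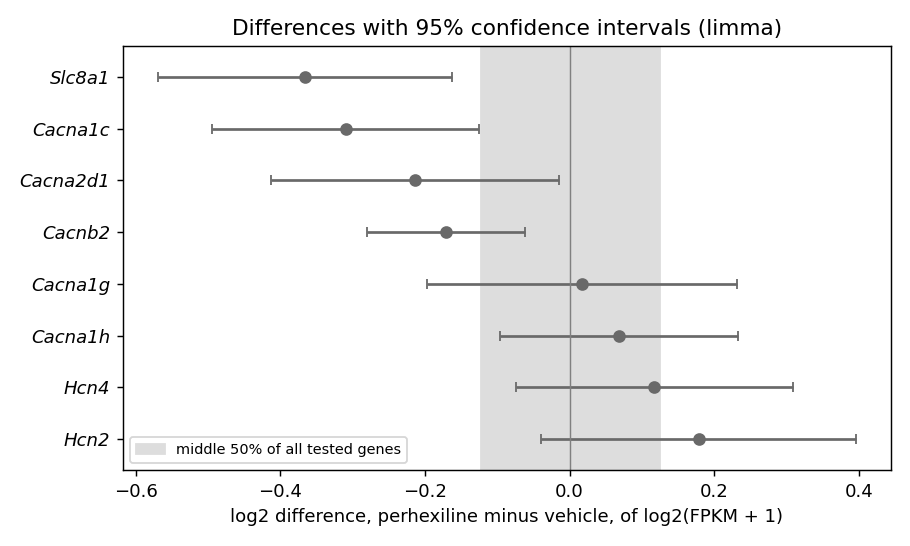
Log2 difference of log2(FPKM + 1), perhexiline minus vehicle (x axis), for each of the 8 genes, with its unadjusted 95% confidence interval from limma and a grey band for the middle 50% of all tested genes. The 4 L-type and exchanger genes lie below 0, from -0.37 to -0.17, and the 4 T-type and HCN genes between 0.02 and 0.18.

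The order of mean levels was the same in both groups, and the neighbours that overlapped differed. With perhexiline the means ran from Slc8a1 at 137 FPKM through Cacnb2, Cacna1g, Cacna1c, Cacna1h, Cacna2d1 and Hcn2 to Hcn4 at 6.16 FPKM. Neighbours in that order were separate except Cacna1c and Cacna1h, whose libraries overlapped at 25.2 to 31.3 FPKM and 25.8 to 26.7 FPKM. With vehicle the order of the means was the same, but here Cacna1c overlapped Cacna1g above it, at 34.1 to 34.9 FPKM against 32.0 to 38.8 FPKM, and was separate from Cacna1h. The ratio of Cacna1g to Cacna1c was 1.32 ± 0.0825 with perhexiline and 1.04 ± 0.0942 with vehicle (SD, n = 3 each). Its values were 1.41, 1.29 and 1.25 in the perhexiline libraries and 1.08, 1.11 and 0.936 in the vehicle libraries. This ratio does not depend on the scaling of a library, it was chosen after its values were seen, and it was not tested.

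Vehicle replicate 3 was at one end of the vehicle range for all 8 genes. It was the lowest vehicle library for 6 genes and the highest for Cacnb2 and Hcn4. Over all tested genes it was at one end for 71.0%, against 64.4% and 64.7% for the other vehicle libraries.

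Behind these values lay 308 to 8399 fragments per gene and library, of which Hcn2 had the fewest, at 430 to 522 in perhexiline libraries and 308 to 433 in vehicle libraries. Libraries totalled 14863929 to 16702523 fragments with perhexiline and 13616252 to 15241994 with vehicle. Cardiomyocyte markers were present as labelled, with 14 of 15 matched by symbol and detected (Ttn was not matched) and Tnnt2 and Actc1 at 2845 FPKM or more in every library. Their summed level was 16820 to 19370 FPKM with perhexiline and 20350 to 24500 FPKM with vehicle, and 4 of the 14 fell and none rose. Their median log2 difference was -0.37, beside -0.37 for Slc8a1 and -0.31 for Cacna1c, and the part of this in the levels of those genes was not tested. In such bulk RNA, fewer cells of a type and less RNA per cell cannot be told apart. Macrophage and leukocyte markers, 10 of 10 detected, summed to 52.4 to 79.3 FPKM with perhexiline and 95.01 to 100.2 FPKM with vehicle, and 2 of the 8 tested fell, Mrc1 (0.448 times, limma adjusted p = 0.0221) and C1qa (0.542 times, 0.0451). Endothelial markers summed to 100.9 to 102.2 FPKM with perhexiline and 82.5 to 89.4 FPKM with vehicle, mostly Eng, the 1 of 6 tested that rose (mean 81.4 FPKM with perhexiline and 67.9 FPKM with vehicle; adjusted p = 0.0277). Other members went the other way without a call or below the filter, among them Tie1 at 0.742 times, Cdh5 at 0.782 times and Emcn at 0.501 times, and Pecam1 was not matched. Fibroblast markers summed to 1056 to 1110 FPKM with perhexiline and 1096 to 1136 FPKM with vehicle, mostly Col1a1 (mean 477 FPKM with perhexiline and 538 FPKM with vehicle). Of these 10 markers, Dcn (1.44 times, adjusted p = 0.0138) and Pdgfra (1.35 times, 0.0373) rose and Col3a1 (0.785 times, 0.0251) fell. Smooth muscle markers summed to 1165 to 1401 FPKM with perhexiline and 1299 to 1792 FPKM with vehicle, and 0 of the 10 were called. This sum was mostly Acta2 and Des (581 and 571 FPKM as means of all libraries), while Cnn1 was at 15.1 FPKM and Myh11 at 5.86 FPKM. Neural and Schwann markers summed to at most 18.7 FPKM and epicardial markers to at most 45.6 FPKM in any library. For the pacemaker genes, the nodal markers are the nearest comparison, and all 9 were detected at a summed 28.7 to 31.9 FPKM with perhexiline and 28.5 to 30.9 FPKM with vehicle. This sum was mostly Gjc1, Tbx18 and Gja5 (10.2, 7.52 and 6.73 FPKM as means of all libraries). Of the 9, 5 passed the filter and 0 were called. Within that list the nodal factors Shox2 and Isl1 were at most 0.683 FPKM. Ventricular markers, mostly Myl3, summed to 1924 to 2296 FPKM with perhexiline and 2215 to 2685 FPKM with vehicle. All 5 had a difference below 0, and 1 of them fell, Myl2 (0.771 times, limma adjusted p = 0.0487). Myl2 and Myl3 are also in the cardiomyocyte list, so this fall is 1 of the 4 counted there. Atrial markers, mostly Nppa, summed to 3045 to 3949 FPKM with perhexiline and 2195 to 3582 FPKM with vehicle. Nppa stood at 1.16 times its vehicle mean, with overlapping groups (limma adjusted p = 0.469). Of the 6 atrial markers tested, 0 were called, 2 had a difference above 0 and 4 below. Among the 4 were Sln at 0.721 times and Myl7, which is also in the cardiomyocyte list, at 0.702 times.

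Genes around the 8 were read from 5 lists of channel subunits and partners. For comparison with the counts of each list, 3.55% of all tested genes were called higher and 3.11% lower. Of 21 other calcium channel subunit genes, 5 passed the filter and none passed the test in either direction, by limma or by limma-voom, with 3 of them at an unadjusted p under 0.05. The most abundant were Cacna2d2 and Cacnb3, given above. Their median log2 difference was -0.29, against 0.01 over all tested genes.

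Of 10 tested sodium channel and partner genes reported here, 2 fell. Fgf13, an intracellular partner that modulates sodium channel gating, had 12.2, 10.7 and 11.2 FPKM with perhexiline, against 17.1, 16.4 and 16.7 FPKM with vehicle (log2 difference -0.52 ± 0.065, SE; adjusted p = 0.0114). Ank3, which encodes ankyrin-G and anchors sodium channels at the membrane, had 29.3, 26.1 and 30.3 FPKM with perhexiline, against 40.3, 39.6 and 35.8 FPKM with vehicle (-0.42 ± 0.073; adjusted p = 0.0249). Both had separate groups, but they were picked by the test on these same libraries. Of the 10 genes, 5 lay wholly below the vehicle libraries and 0 wholly above, against 14.9% and 17.0% of all tested genes. Of these calls, that of Fgf13 was lost in 1 of the 6 fits without a library (adjusted p = 0.0517 without perhexiline replicate 3) and that of Ank3 in 4. These 10 genes had 2 falls without perhexiline replicate 1 or vehicle replicate 3, 1 fall without perhexiline replicate 2, vehicle replicate 1 or vehicle replicate 2, and none without perhexiline replicate 3.

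Genes that set or answer cyclic AMP, the ligand of HCN channels, gave 5 falls and no rise among 14 tested rows, in which Gnas stands on 2 rows. Chrm2, the muscarinic receptor that slows the heart, had 44.1, 41.1 and 45.1 FPKM with perhexiline, against 55.3, 55.4 and 55.9 FPKM with vehicle (-0.35 ± 0.05, SE; adjusted p = 0.0167). Pde3a, a cardiac cyclic AMP phosphodiesterase, had 22.0, 14.4 and 19.8 FPKM with perhexiline, against 31.6, 33.6 and 27.3 FPKM with vehicle (-0.70 ± 0.15; adjusted p = 0.0373). The Popeye domain genes Popdc2 and Bves, which encode cyclic AMP binding membrane proteins, stood at 0.794 and 0.846 times their vehicle means (adjusted p = 0.0281 and 0.0386). Adcy6, a cardiac adenylyl cyclase, stood at 0.842 times (adjusted p = 0.0437). Each of the 5 had separate groups, but they were picked by the test on these same libraries. Of the 14 rows, 6 lay wholly below the vehicle libraries and 1 wholly above, against 14.9% and 17.0% of all tested genes. Of the 6 fits without a library, Chrm2 was called in 3, Pde3a and Popdc2 in 2 each, Adcy6 in 1 and Bves in 0. The falls numbered 3, 0 and 1 without perhexiline replicates 1, 2 and 3, and 0, 0 and 4 without vehicle replicates 1, 2 and 3.

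Among 12 tested exchanger and pump genes outside the 8, 1 rose and none fell. It was Atp1b3, a beta subunit of the sodium-potassium pump, which had 92.8, 106.8 and 94.0 FPKM with perhexiline, against 81.9, 76.5 and 76.4 FPKM with vehicle (0.32 ± 0.066, SE; adjusted p = 0.0367). Atp1b3 was called in 1 of the 6 fits that left out a library, the fit without perhexiline replicate 1, where 2 genes of the list were also called lower.

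In the list of L-type channel regulators and dyad genes, 2 rose and 1 fell among 24 tested. There were 21 differences below 0, against 47.1% over all tested genes, and the median was -0.13. Gem, a small GTPase that inhibits L-type channels through the beta subunit, had 11.5, 14.6 and 10.7 FPKM with perhexiline, against 8.81, 7.88 and 6.60 FPKM with vehicle (0.59 ± 0.13, SE; adjusted p = 0.0445). Jph1, a junctophilin that ties the cell membrane to the sarcoplasmic reticulum, had 9.04, 10.7 and 9.99 FPKM with perhexiline, against 7.17, 7.44 and 7.98 FPKM with vehicle (0.35 ± 0.081; adjusted p = 0.0454). Prkaca, the catalytic subunit of protein kinase A, had 105.1, 90.1 and 96.3 FPKM with perhexiline, against 124.7, 128.7 and 114.9 FPKM with vehicle (-0.34 ± 0.07; adjusted p = 0.0371). Of the 6 fits without a library, Gem was called in 0 (adjusted p 0.0658 to 0.122), Jph1 in 1 and Prkaca in 2. Without 1 library the rises numbered 0 or 1 and the falls 0 to 4, and no gene of the list was called without perhexiline replicate 2, perhexiline replicate 3, vehicle replicate 1 or vehicle replicate 2. With limma-voom 6 genes of the list were lower.

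**Figure D3:**
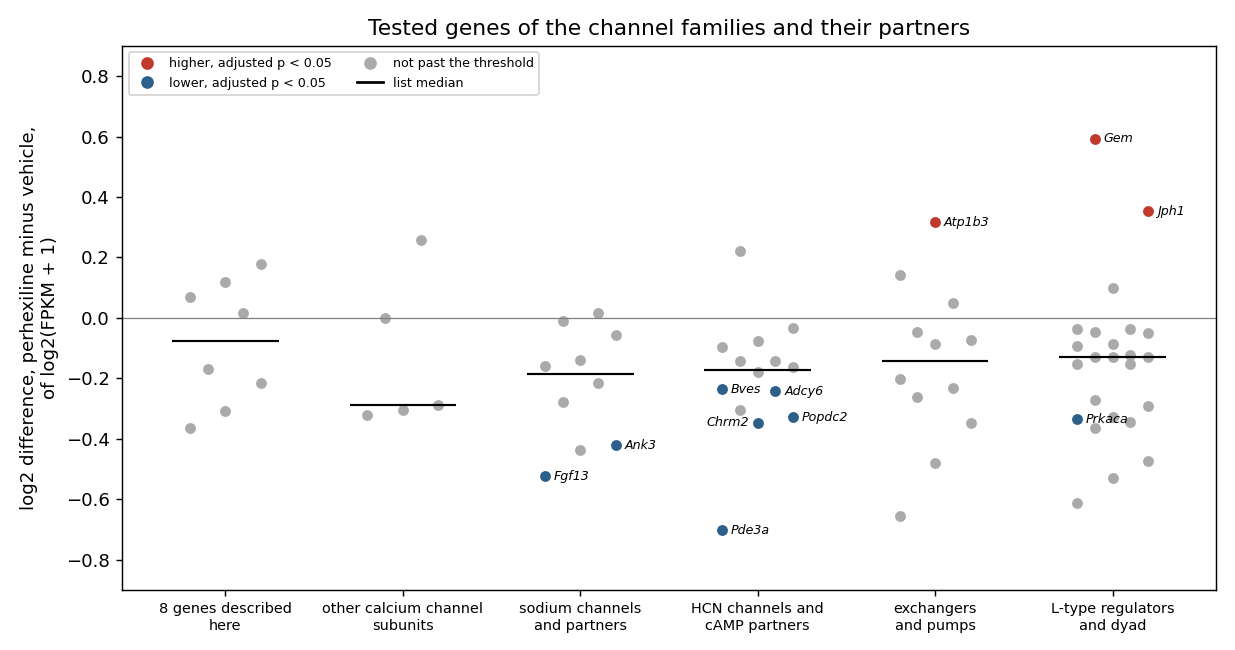
Log2 difference of log2(FPKM + 1), perhexiline minus vehicle (y axis), of each tested gene in the 8-gene set and in 5 lists of related genes, with red points for genes higher and blue for genes lower at an adjusted p under 0.05, grey for the rest and a bar for the list median. Medians lie between -0.29 and -0.08, and the called genes drawn are the 11 named ones.

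The genes whose profiles over the 6 libraries were nearest to those of Slc8a1 and Cacna1c, the pair with the smallest adjusted p, are given as a description. Likeness was the root-mean-square distance between log2(FPKM + 1) profiles, each centred on its own mean. For Slc8a1, whose own spread was 0.21, they were Myadm at 0.019, the inward rectifier potassium channel gene Kcnj2 at 0.029 and the kinase anchoring gene Akap5 at 0.031. For Cacna1c, with a spread of 0.18, they were Zfp326 at 0.025, Ssc5d at 0.027 and Fgd4 at 0.032. Ssc5d and Fgd4 were low, at means of 1.36 and 1.35 FPKM with perhexiline and 1.99 and 1.88 FPKM with vehicle. At such levels this scale understates the change, so the distance can be small although the ratios differ.

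**Figure D4:**
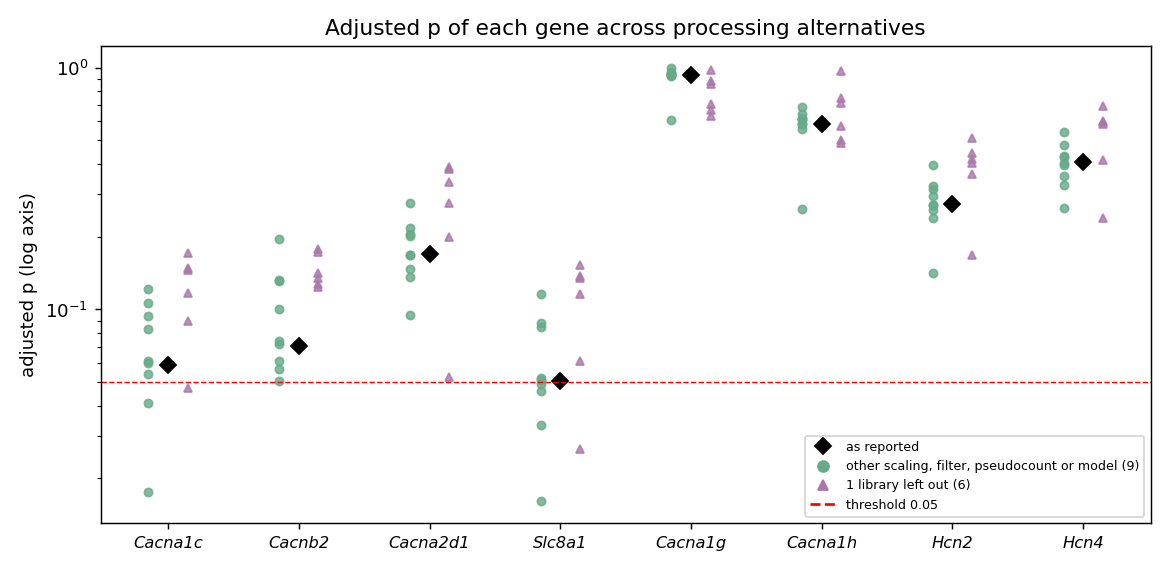
Adjusted p (log axis) of each gene as reported (diamond), under 9 alternatives of scaling, filter, pseudocount or model (circles) and without each library in turn (triangles), with the threshold of 0.05 dashed. Points of Slc8a1 and Cacna1c lie on both sides of the threshold, and all points of the other 6 genes lie above it.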

How the data were processed

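Poly(A) RNA of 6 libraries (3 with perhexiline, 3 with vehicle) was read as pairs from dUTP-marked libraries, per the labels' protocols. The authors deposited FPKM per gene and library, per the file headers, with gene lengths. The submitters' processing notes name HISAT2 2.0.5 and DESeq2 without their roles. The counter, genome build and strand setting were not given in the sources used here. Reads shared by paralogs or overlapping genes therefore cannot be told apart. FPKM compare genes per annotated length, so their order depends on that annotation.

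Multiplied by gene length, 100% of positive FPKM were whole multiples of a library's smallest unit (tolerance 0.01), and the multiples were taken as fragments. A gene entered the test if 3 or more libraries had an FPKM of 1 or more. Log2(FPKM + 1) values, a scale that understates the change of low genes, were compared with limma 3.58.1 in R 4.3.3 (mean-variance trend, group as the only term, two-sided), and a call was an adjusted p (Benjamini-Hochberg, over all tested genes) under 0.05. The procedure was tested on simulated data. The alternatives were other pseudocounts, filters and scalings, limma-voom on the fragments, no trend, the replicate number as a block and each library left out. The genes and lists were chosen with earlier results of these data known. Some genes of the lists are not reported here. Called genes of each list were named, or else its most abundant pair. Replicates of a group were different libraries (chi-square per degree of freedom of fragments 4.70 to 8.14). The labels give no batches.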

Additional observations from a re-analysis of the deposited data

How the results depend on the processing

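Fits without 1 library gave log2 differences of -0.45 to -0.30 for Slc8a1, -0.40 to -0.25 for Cacna1c, -0.19 to -0.15 for Cacnb2, -0.30 to -0.15 for Cacna2d1, 0.095 to 0.26 for Hcn2, 0.075 to 0.18 for Hcn4, -0.063 to 0.090 for Cacna1g and -0.0046 to 0.11 for Cacna1h, so the signs of Cacna1g and Cacna1h turned. Slc8a1 was called among genes with a mean FPKM of at least 5 (-0.37), under upper-quartile scaling (-0.38), under total-fragment scaling (-0.31) and with limma-voom (-0.38). Cacna1c was called with that filter (-0.31) and with limma-voom (-0.33). The members called lower thus numbered 2, 1, 1 and 2 under those alternatives in that order, and 0 to 1 without a library. The cause of these shifts was not tested. The stricter filter tests fewer genes, and the unadjusted limma p moved under it too. It went from 0.00344 to 0.00262 for Slc8a1 and from 0.00501 to 0.00403 for Cacna1c. Over all genes, 478 were called higher and 418 lower as reported, against 99 and 63 with no filter, 207 and 166 with no trend, 815 and 333 under total-fragment scaling, 707 and 846 with limma-voom, and 69 to 423 higher and 35 to 471 lower without a library. Total-fragment scaling put the median log2 difference of all genes at 0.062.

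With the replicate number as a block, 101 genes were called higher and 72 lower, 0 of the 8, and in the 5 lists 0 were higher and 1, a sodium channel partner, lower. Deviations from the group means correlated at -0.023, -0.101 and -0.039 between same-numbered libraries, and at -0.055 to 0.092 between the other pairs. With 3 libraries per group these deviations are tied to each other, so they cannot decide whether the numbers pair libraries. With no filter, the L-type regulator list had 0 higher and 0 lower, the cyclic AMP list 1 lower, the pump list 0 higher and the sodium channel list 1 lower, and with no trend the L-type regulator list had 0 higher and 0 lower, the cyclic AMP list 1 lower and the pump list 0 higher. Total-fragment scaling gave 1 higher calcium channel subunit and 3 lower cyclic AMP genes. Limma-voom gave 6 lower L-type regulators, 2 lower pump genes and 4 lower sodium channel genes, and a mean FPKM of at least 5 gave 1 lower pump gene. Without a library, counts spanned 0 to 1 higher and 0 to 4 lower for L-type regulators, 0 to 4 lower for cyclic AMP genes, 0 to 1 higher and 0 to 2 lower for pumps, and 0 to 2 lower for sodium channels. The Hcn4 to Hcn2 ratio differed by -0.072 to 0.038 and the Cacna1h to Cacna1g ratio by -0.015 to 0.052 without a library.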
